A study of Danio rerio with 24 samples.

Results

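A group of cells from the kidney marrow of adult zebrafish was examined in which a mitochondrial RNA, ENSDARG00000080337, made up most of what was sequenced. A cell was a barcode among the fuller set of 96 barcodes of its library, with at least 1500 transcripts in Ensembl zebrafish gene rows. The cells were chosen by this measured share: a cell was counted as rRNA-dominated where ENSDARG00000080337 held at least 60% of those transcripts. This rule found 79 of the 1008 cells, leaving 929 other cells. The high share of ENSDARG00000080337, and the small remainder that goes with it, were therefore fixed by the choice of the cells and are given as description, without a test.

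Mitochondria carry a genome of their own, which encodes the ribosomal RNAs of the mitochondrial ribosome and mRNAs for subunits of the respiratory chain and of ATP synthase. These RNAs sit inside the organelle and can carry short A tails, so that a method primed at poly(A) tails can capture them beside nuclear mRNAs. In single-cell data, a high mitochondrial share is widely read in 2 ways, as a mark of cells that have lost cytoplasmic RNA and as a property of cells rich in mitochondria. The tubule epithelium of the kidney, which drives salt and solute uptake with the sodium pump, is known as a mitochondria-rich tissue. In teleost fish the kidney also houses the blood-forming marrow, so that tubule cells can be carried along when marrow is prepared.

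The study compared wild-type fish with fish homozygous for either of a pair of mutant alleles of ikzf1, which encodes the zinc finger transcription factor Ikaros. The IT325 allele ends the protein before its C-terminal zinc fingers, used for contacts between proteins, and fr105 is an internal deletion that truncates the protein within its DNA binding fingers. Whole kidney marrow was taken from untreated fish aged 3 months, and 8 libraries of single sorted cells were made per genotype by mCEL-Seq2, which reads the 3' end of mRNAs with unique molecular identifiers (UMIs). The labels divide each genotype into sets named P1 and P2 of 4 libraries each and name no individual fish, so that libraries of a genotype may share a fish and p-values measure the spread between libraries. The methods describe sequencing by genotype, with 8 libraries in each lane, and differences between lanes and between genotypes cannot be told apart. A 3' tag of ikzf1 lies outside the altered part of the gene, and its level was not used to check the labels.

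Libraries held between 103585 and 545086 transcripts and between 22 and 56 cells. Depth differed between genotypes, with library medians of 3160 to 4502 transcripts per cell for wild-type fish, 5364 to 8753 for IT325 and 3264 to 6120 for fr105. The 1296 wells under the minimum of 1500 transcripts, with a median of 174 nuclear transcripts, served as the measure of what a well without an intact cell can hold, although some of them may hold small cells.

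The label of these cells was checked against its 3 marker genes. ENSDARG00000080337 and ENSDARG00000082753 carry no symbol in the name tables used here, and their annotation as mitochondrial rRNAs rests on the working description of these cells. The remaining marker, ENSDARG00000063916, is mt-nd4l, an mRNA for a subunit of respiratory complex I. ENSDARG00000082753 was detected in all 79 rRNA-dominated cells and in 892 of the 929 other cells. Between 60.2% and 91.3% of a cell's transcripts came from ENSDARG00000080337 in the rRNA-dominated cells, with a median of 74.9%. The other cells had a median of 22.7%.

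The threshold did not fall into a gap. The 5 other cells closest to it had ENSDARG00000080337 shares of 58.7%, 58.9%, 59.0%, 59.6% and 59.9%, and the 5 closest rRNA-dominated cells had 60.2%, 60.6%, 60.7%, 60.8% and 61.0%. There were 29 cells from 50 to under 60%, 30 from 60 to under 70%, 23 from 70 to under 80% and 26 at 80% or above. The cells thus form the upper tail of a continuous range, most of whose cells lay between 10 and 30%.

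**Figure D1:**
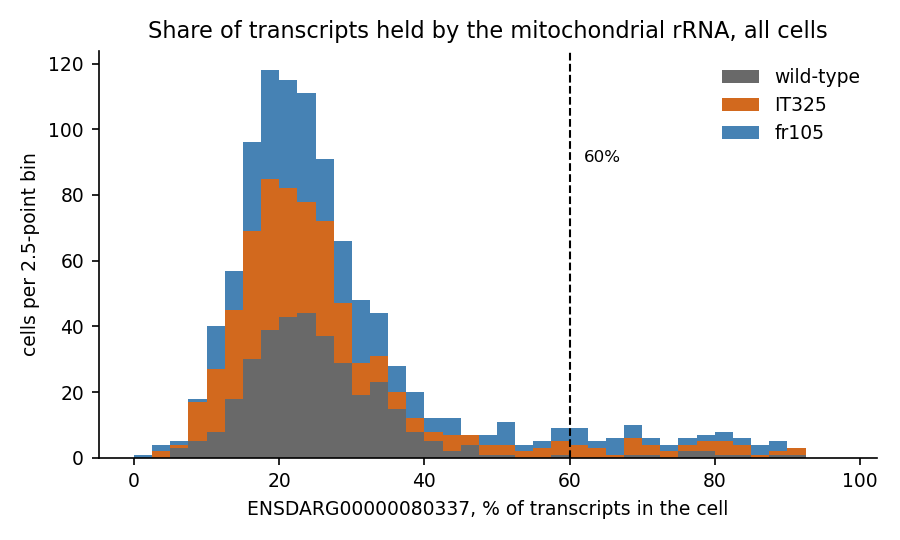
Share of each cell's transcripts held by ENSDARG00000080337, in percent on the horizontal axis, against the number of cells per bin on the vertical axis, stacked by genotype, with the 60% threshold dashed. The 79 rRNA-dominated cells lie to the right of the threshold, from 60.2 to 91.3%, with no gap in the distribution at the threshold.

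The rRNA-dominated cells combined more of the rule RNA with much less of the nuclear RNA. The median cell held 2224 transcripts of ENSDARG00000080337, against 1205 in the other cells and 63.5 in the wells under the minimum. Nuclear transcripts numbered 347 in the median rRNA-dominated cell and 3683 in the median other cell. The number of genes detected outside ENSDARG00000080337 had a median of 231, against 1542. The ENSDARG00000080337 level was therefore well above that of the wells under the minimum, while the nuclear level came close to theirs.

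Nuclear transcripts were counted against those of wells from the same library. In 54 of the 79 cells (68.4%) they did not exceed the 95th percentile of the library's own wells under the minimum, and in 17 they were below the median of those wells. Of the 929 other cells, 6 (0.646%) were within the same limit. All 26 cells with an ENSDARG00000080337 share of 80% or above were within it, against 17 of the 23 cells from 70 to under 80% and 11 of the 30 cells from 60 to under 70%. The remaining 25 cells, of which 15 had at least 3 kidney tubule genes, held more nuclear RNA than nearly all wells under the minimum. The contrast with the other cells, and the rise with the share, are in part fixed by the rule, which leaves other cells a larger remainder. The lowest nuclear count of an other cell was 575. In some libraries the 95th percentile of the wells lay below that, such as 330 in fr105 replicate 8. In others it lay above, up to 1027 in wild-type replicate 2. The wells under the minimum also held wells of high share. Of 343 such wells with 500 to 1499 transcripts, 79 had an ENSDARG00000080337 share of at least 60%. The counts of cells within the limit are therefore given as description.

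**Figure D2:**
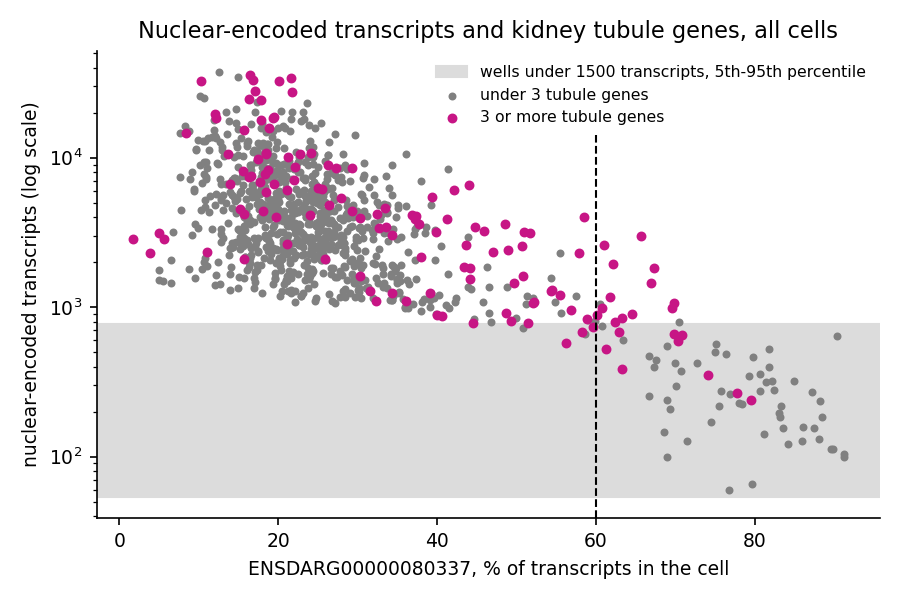
Nuclear transcripts per cell on a log axis against the share of ENSDARG00000080337 in percent, with cells of at least 3 tubule genes in violet, the 60% threshold dashed, and a grey band from the 5th to the 95th percentile of the wells under 1500 transcripts of all libraries. Nuclear transcripts were fewer at higher shares, and no cell at 80% or above had 3 tubule genes.

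What remained beside ENSDARG00000080337 was rich in other mitochondrial RNAs. In the median rRNA-dominated cell, the 13 mitochondrial mRNAs made up 32.7% of the remaining transcripts, against 4.34% in the other cells and 7.34% in the wells under the minimum. In absolute number the pooled medians differed little, with 213 transcripts per cell against 186 in the other cells and 15 in the wells under the minimum. By genotype, the median was 515 in the 10 wild-type, 140 in the 34 IT325 and 327 in the 35 fr105 rRNA-dominated cells. As a share of the remaining transcripts these medians were 67.2%, 25.3% and 36.6%. The second rRNA of the label, ENSDARG00000082753, stood at a median of 18 transcripts against 8.01 in the other cells. Pooled over genotypes, mitochondrial mRNAs were thus close to the level of other cells in wells whose nuclear RNA was lower by a factor of 10.6 at the median. By genotype, the medians lay above the pooled 186 in wild-type and fr105 and below it in IT325. The other cells were not split by genotype here, so that no closeness within a genotype was shown.

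The 12 libraries with at least 3 rRNA-dominated cells were compared one by one, over 65 of the 79 cells. Mitochondrial mRNAs made up 18.7% of the remaining transcripts in the lowest library, 33.1% in the median library and 59.7% in the highest, which was the wild-type library of the 12, with 3 such cells. In the other cells of the same libraries the values were 3.78%, 4.92% and 6.04%. The ranges did not overlap, and the value was higher in the rRNA-dominated cells of 12 of 12 libraries. ENSDARG00000082753 made up 0.912%, 2.59% and 4.6% of the remaining transcripts in the lowest, median and highest library. In the other cells it made up 0.150%, 0.193% and 0.249%, again without overlap. Both measures come from the same genome as the RNA that chose the cells, so that their direction was in part fixed by the rule.

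**Figure D3:**
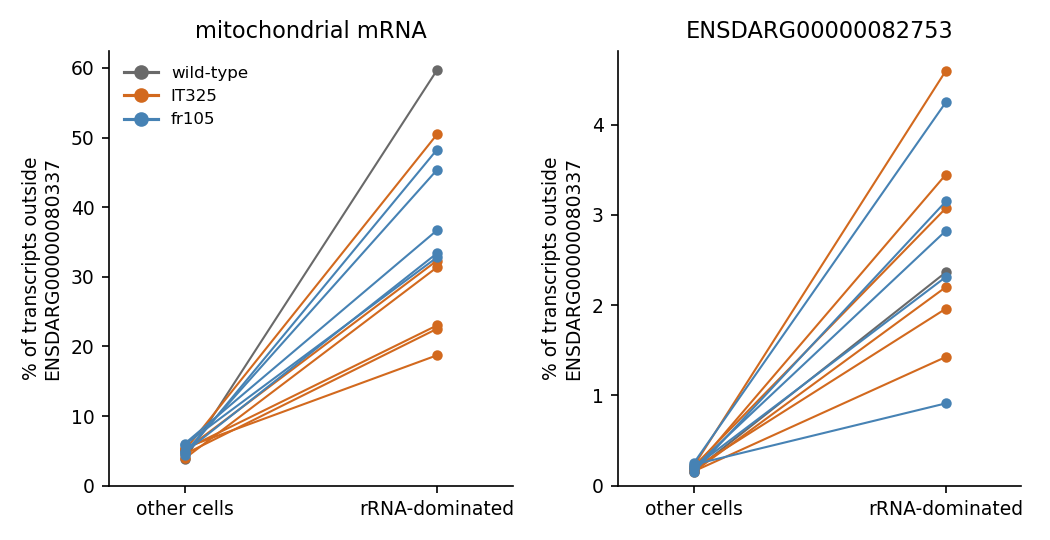
Share of the transcripts outside ENSDARG00000080337, in percent, taken by the 13 mitochondrial mRNAs and by ENSDARG00000082753, for rRNA-dominated and other cells of each library with at least 3 rRNA-dominated cells, joined by a line per library and coloured by genotype. For both measures the values of the rRNA-dominated cells lie above those of the other cells in 12 of 12 libraries, for mitochondrial mRNAs from 18.7 to 59.7% against 3.78 to 6.04%.

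The mitochondrial mRNAs kept much the same order as elsewhere. The leading ones were mt-co2 and mt-co1, for the catalytic core of cytochrome c oxidase, with 17.9% and 17.6% of all mitochondrial mRNA in the rRNA-dominated cells and 21.2% and 16.0% in the other cells. The gene mt-atp6, for a subunit of ATP synthase, followed with 12.2% against 13.5%. The complex I genes mt-nd3 and mt-nd4l took 3.11% and 0.191% in the rRNA-dominated cells against 1.79% and 0.113% in the other cells. Across the other cells, the ENSDARG00000080337 share went with the mitochondrial mRNA share of the remainder (Pearson r = 0.603, Spearman rho = 0.374, n = 929) and with that of ENSDARG00000082753 (r = 0.629, rho = 0.634, n = 929). These correlations are across cells that share libraries and depth and are given as description.

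Gene levels outside ENSDARG00000080337 were then compared between rRNA-dominated and other cells, with transcripts summed per library in the 12 libraries, the library as a block, edgeR's quasi-likelihood test and Benjamini-Hochberg adjustment. Of 2740 genes tested, 53 were higher in the rRNA-dominated cells (1.93%) and 1553 lower (56.7%), together 58.6%. This split depended on the scaling. With TMM factors, the main setting, the median log2 difference over all genes was -1.61, whereas with totals of nuclear transcripts and no factor it was -0.08, and 128 genes (4.67%) were then higher and 38 (1.39%) lower, together 6.06%. Simulated data for these sums likewise had many unchanged genes called lower under TMM. Log2 differences in this comparison are therefore given relative to the median of all genes. The SE and adjusted p beside such a value, here and against the tubule-gene cells, are those of the TMM difference before the median was subtracted, tested against 0. In addition, a gene is called lower only where the call was made under all 5 scalings used, which left 22 genes. Of the 53 higher genes, 52 were higher under all 5.

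Mitochondrial RNAs made up 14 of the 53 higher genes. All 13 mitochondrial mRNAs were among them, with differences between 3.13 and 4.14 above the median of all genes. ENSDARG00000082753 was present at 14.6, 45.3 and 74.6 transcripts per 1000 nuclear transcripts in the lowest, median and highest library of rRNA-dominated cells, and at 1.58, 2.04 and 2.62 in other cells. Its groups did not overlap, and its log2 difference was 4.32 above the median of all genes (SE 0.30, edgeR adjusted p = 5.7e-17). The gene mt-nd3 was at 6.48, 17.4 and 30.8 against 0.690, 0.951 and 1.48 per 1000, a difference of 4.08 above the median (SE 0.30, edgeR adjusted p = 6.1e-14). These genes share the mitochondrial genome with the RNA that chose the cells, and the rule also selects a small nuclear remainder. Their rise per nuclear transcript was therefore in part fixed by the choice of cells. The p-values and the lack of overlap are given as description.

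The other 39 higher genes were led by genes of the kidney tubule and of ion and solute transport. The gene fxyd2, for the regulatory gamma subunit of the sodium pump, had the largest difference, 5.57 above the median of all genes (SE 0.43, edgeR adjusted p = 3.2e-17). It was at 0, 2.79 and 8.43 transcripts per 1000 nuclear transcripts in the lowest, median and highest library of rRNA-dominated cells, against 0.00587, 0.0649 and 0.165 in other cells. It was higher in 10 of 12 libraries, and the ranges overlapped because the rRNA-dominated cells of some libraries held no transcript of it.

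The gene selenop, for the secreted selenium carrier selenoprotein P, was the most abundant of these. Its level was 0.952, 16.1 and 33.2 per 1000 nuclear transcripts in the lowest, median and highest library, against 0.0375, 0.478 and 2.41 in other cells, and it was higher in 11 of 12 libraries. The difference was 4.43 above the median (SE 0.40, edgeR adjusted p = 1.7e-10), and 2.004 above the median when the limit for an rRNA-dominated cell was set to 70%, where the test with TMM did not call it (edgeR adjusted p = 0.560) and that with nuclear totals did (0.00365). The gene ndrg1a, of the N-myc downstream regulated family, was higher in 12 of 12 libraries, with 0.769, 1.96 and 5.93 per 1000 against 0, 0.0990 and 0.643. Among the 15 largest differences were also pvalb9, a calcium-binding parvalbumin (4.50 above the median), slc2a11a, of the facilitative sugar transporter family (4.32), MT1X, a metallothionein (4.25), cox5b2, a nuclear subunit of cytochrome c oxidase (4.24), and cltrn, a partner of amino acid transporters in the tubule (4.02). ENSDARG00000052643, without a symbol in the tables used here, stood 4.57 above the median. Of these, pvalb9, slc2a11a, cltrn and ENSDARG00000052643 were higher in 6 of 12 libraries each.

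**Figure D4:**
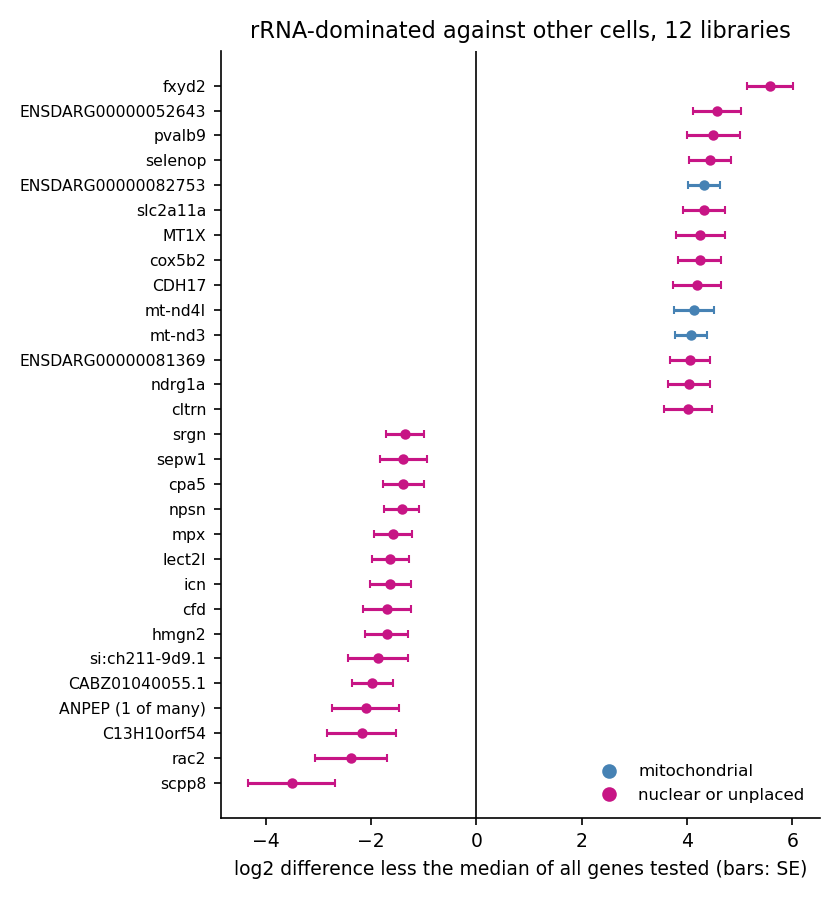
Log2 difference between rRNA-dominated and other cells as edgeR estimates relative to the median of all 2740 genes, with standard errors, for 14 of the 15 genes with the largest difference and the 15 smallest of the 22 genes lower under all scalings. The upper genes run from 4.02 for cltrn to 5.57 for fxyd2, and the lower genes from -1.36 for srgn to -3.51 for scpp8.

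The list of kidney tubule genes held 21 genes, of which 16 were detected in at least 1 rRNA-dominated cell and 4 were abundant enough to test. All 4 were higher with TMM, beside 1.93% of all genes, and with nuclear totals, beside 4.67%. They included CDH17, a cadherin of the zebrafish kidney tubule, and atp1a1a.4, a catalytic subunit of the sodium pump. CDH17 was at 0, 0.931 and 5.22 transcripts per 1000 nuclear transcripts in the lowest, median and highest library of rRNA-dominated cells and at 0.00750, 0.0605 and 0.416 in other cells, and was higher in 8 of 12 libraries. The difference for atp1a1a.4 was the weakest of the 4, at 2.496 above the median of all genes, and it was 1.57 above without a filter on low counts and 2.16 above with the 70% limit. With TMM the call was kept under neither setting (edgeR adjusted p = 0.983 and 0.771), and with nuclear totals under both (4.6e-08 and 0.0052). The median over the 4 genes was 4.08 above that of all genes.

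Tubule genes were concentrated in a minority of the rRNA-dominated cells. At least 3 tubule genes were detected in 22 of the 79 cells (27.8%), in 111 of the 929 other cells (11.9%) and in 17 of the 1296 wells under the minimum (1.31%). No tubule gene was detected in 44 of the 79. The 22 cells held 93.6% of all tubule-list transcripts of the rRNA-dominated cells, 379 of 405. When every cell was thinned to 300 UMIs outside ENSDARG00000080337, which left out 5 rRNA-dominated cells as too shallow, at least 3 tubule genes were found in 11 of 74 (14.9%) and in 27 of 929 other cells (2.91%). The thinned counts also pool the genotypes.

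The cells with tubule genes lay near the threshold. They were 17 of the 30 cells at a share of 60 to under 70% (56.7%), 5 of the 23 from 70 to under 80% (21.7%) and 0 of the 26 at 80% or above. A limit of 3 counts where none was seen, with cells taken as independent, allows up to 11.5% there. With a median of 191 nuclear transcripts per cell at 80% or above, a few tubule genes per cell may not be detectable at this depth. Below the threshold, 17 of the 29 cells from 50 to under 60% (58.6%) and 18 of the 38 from 40 to under 50% (47.4%) also had at least 3 tubule genes, against 5.22% of cells from 20 to under 30%. The rRNA-dominated cells with tubule genes had an ENSDARG00000080337 share of 60.2 to 79.5% (median 65.1%), a median of 870 nuclear transcripts and a median of 19.5% mitochondrial mRNA in the remainder. The 57 without had a median share of 79.3%, 263 nuclear transcripts and 41.1% mitochondrial mRNA.

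Of the 39 higher genes that were not annotated as mitochondrial, 38 were higher per nuclear transcript in the cells with tubule genes than in those without, by a median of 8.37-fold among genes found in both, and 11 had no transcript in the cells without. For the genes of the tubule list this direction was fixed by the way the cells were divided. When all cells with at least 3 tubule genes were left out, 8 libraries could be compared. With TMM, where the median of all genes lay at -2.12, 15 of 2644 genes (0.567%) were higher and 1474 lower (55.7%), together 56.3%. The higher genes were the 13 mitochondrial mRNAs, ENSDARG00000082753 and ENSDARG00000081369, a gene without a symbol in the tables used here. Whether ENSDARG00000081369 is nuclear or mitochondrial was not established. As for the mitochondrial mRNAs, its level was higher in rRNA-dominated cells without tubule genes (2.09 per 1000 nuclear transcripts) than in those with (0.569). With nuclear totals, where the median lay at -0.07, 29 genes (1.1%) were higher and 1 (0.0378%) lower, together 1.13%. The 29 held these 15 and 14 others, among them selenop, the sodium pump subunits atp1a1a.4 and atp1b1a, the cytochrome c oxidase subunit cox6a2 and the globin genes hbaa2, zgc:92880 and si:xx-by187g17.1. For these globins the direction differed between the alleles, with tubule-gene cells included. In IT325 their library medians were 15.7, 17.7 and 22.2 per 1000 nuclear transcripts, against 18.7, 18.2 and 61.4 in other cells. In fr105 they were 2.33, 0.952 and 5.48, against 0.0996, 0.0664 and 0.437. The ranges over libraries overlapped for each. The difference of selenop was 2.57 above the median with TMM (edgeR adjusted p = 0.414) and 2.60 above with nuclear totals (0.00044), and that of ndrg1a, called under neither, was 3.03 and 3.00 above (0.316 and 0.124).

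The nuclear RNA of the 22 cells with tubule genes was led by selenop at 22.5 transcripts per 1000 nuclear transcripts, atp1b1a, a beta subunit of the sodium pump, at 13.9, and actb2, a cytoplasmic actin, at 10.2. In the 111 other cells with tubule genes, selenop was at 3.61 and atp1b1a at 1.88. Those 111 cells also held more blood cell RNA, with ba1 at 55.0 and lyz at 17.8, against 6.31 and 5.52 in the 22 cells. The part of this blood cell RNA in the lower selenop and atp1b1a levels was not tested. The nuclear RNA of the 57 cells without tubule genes was led by genes that every kind of well held. The beta globin gene ba1 was at 34.1 per 1000 in these cells, 31.7 in the wells under the minimum and 45.0 in the other cells, and lyz, for lysozyme of granulocytes, was at 21.3, 19.7 and 27.6. The globin gene si:xx-by187g17.1 was at 33.6, 30.4 and 40.7, and actb2 at 21.0, 21.9 and 20.4. These levels pool the genotypes, which differed in globin levels. The study left out reads that mapped to more than 1 locus, so that the levels of near-identical globin copies, and the split between them, are uncertain. Across 1366 genes, the nuclear profile of the cells without tubule genes had Pearson r = 0.860 with the wells under the minimum, 0.827 with the other cells and 0.635 with the rRNA-dominated cells that had tubule genes. These correlations are across genes, which are not independent replicates.

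The 22 genes lower under all scalings included genes of mature granulocytes and of the cytoskeleton. All 15 neutrophil genes tested were lower with TMM, beside 56.7% of all genes, and 7 (46.7%) with nuclear totals, beside 1.39%. The granulocyte lysozyme gene lyz was at 3.44, 13.4 and 31.0 transcripts per 1000 nuclear transcripts in the lowest, median and highest library of rRNA-dominated cells and at 9.85, 27.4 and 54.2 in other cells, and was lower in 10 of 12 libraries. Its difference was 1.2 below the median of all genes, with -1.11 (SE 0.28, edgeR adjusted p = 0.0025) under nuclear totals. The myeloperoxidase gene mpx was at 0, 0.917 and 2.34 against 1.56, 3.06 and 4.59 per 1000, and differed by -1.60 (SE 0.35, edgeR adjusted p = 0.00029) under nuclear totals. Others among the 22 were lect2l and npsn, expressed in zebrafish neutrophils, rac2, a GTPase of leukocytes, srgn, for a granule proteoglycan, and the cytoskeletal genes tmsb4x, pfn1 and actb1. With tubule-gene cells left out (8 libraries), nuclear totals called none of the 22 lower, and the only lower gene was snoU83B. At the 70% limit (9 libraries), 0 genes were lower with nuclear totals. The level of lyz was 5.52 per 1000 in rRNA-dominated cells with tubule genes and 21.3 in those without. The wells under the minimum had 19.7. The part of the tubule-gene cells in these calls was not tested.

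The 15 genes with the smallest fitted log2 values, led by GPSM3, wu:fj29h11 and rhogb, had no transcript in the rRNA-dominated sums. Against a floor of 3 counts over the group, they were 1.42-fold to 2.79-fold lower. This is not a lower bound, because the genes were picked for the smallest values among all genes tested. None was among the 22 genes lower under all scalings, and DESeq2 called none of the 15. Their fitted values depend on the prior count and are not given.

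Lists that bear on stress or loss of cell integrity were described in the same way. The immediate early list, of genes induced within minutes of handling or signalling, summed to 0.666 transcripts per 1000 nuclear transcripts in the rRNA-dominated cells, 1.59 in other cells and 2.13 in the wells under the minimum. Its 5 tested genes were all lower with TMM, a call that nuclear totals did not keep, and the list rests on 27.0 transcripts. The heat shock list summed to 7.23, 8.70 and 7.98 per 1000, and the p53 and apoptosis list, with 26.0 transcripts, to 0.642, 0.723 and 0.676. For these lists, 7 of 9 and 3 of 4 tested genes were lower with TMM, beside 56.7% of all genes, and no such call was kept with nuclear totals.

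Lists of blood cell types and of housekeeping functions were summed in the same way. Erythroid genes summed to 47.7 per 1000 nuclear transcripts in the rRNA-dominated cells, 98.6 in other cells and 75.3 in wells under the minimum, and neutrophil genes to 24.2, 52.2 and 38.4. These sums pool the genotypes, of which fr105 gave 35 of the 79 rRNA-dominated cells and 269 of the 929 other cells. Within fr105 the library median of ba1 was 3.20 per 1000 in the rRNA-dominated cells and 0.293 in the other cells, opposite to the direction of the pooled erythroid sum. The 83 cytosolic ribosomal genes summed to 114 per 1000 against 147 and 109. Of the 81 tested, 80 (98.8%) were lower with TMM, beside 56.7% of all genes, a call that was not kept with nuclear totals. Nuclear-encoded subunits of the respiratory chain went the other way, at 31.9 per 1000 against 11.7 and 10.9. Of 74 such genes tested, 2 were higher (2.70%) and 8 lower (10.8%) with TMM, beside 1.93% and 56.7% of all genes, and 21 (28.4%) were higher with nuclear totals, beside 4.67%. With TMM their median lay 1.14 above that of all genes. Their level was 45.1 per 1000 in the rRNA-dominated cells with tubule genes, 15.5 in the other cells with tubule genes and 14.8 in the rRNA-dominated cells without. T cell genes were too sparse to test, with 6 transcripts over all 79 cells.

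The rRNA-dominated cells were next compared with the other cells with at least 3 tubule genes, in 10 libraries. These had a median ENSDARG00000080337 share of 29.3%, 4021 nuclear transcripts and 6.08% mitochondrial mRNA in the remainder. Of 520 genes tested, 18 were higher in the rRNA-dominated cells (3.46%) and 14 lower (2.69%) with TMM, together 6.15%, and with nuclear totals 23 (4.42%) were higher and 1 (0.192%) lower, together 4.62%. Under all 5 scalings 17 were higher, of which 12 were mitochondrial and the others were fxyd2, ndrg1a, atp1b1a, cox6a2, a nuclear subunit of cytochrome c oxidase, and ENSDARG00000091334, which has no symbol in the tables used here. The gene lower under all 5 was hmgn2, for a nucleosome-binding protein. The median of all genes was at -0.47.

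ENSDARG00000082753 had the largest difference in this comparison, 3.97 above the median of all genes (SE 0.42, edgeR adjusted p = 5.4e-08). It was at 14.6, 42.8 and 74.6 transcripts per 1000 nuclear transcripts in the lowest, median and highest library of rRNA-dominated cells and at 1.56, 2.29 and 3.51 in the tubule-gene cells, without overlap. For this and the other mitochondrial RNAs the direction was in part fixed by the rule, and the values are given as description. The sodium pump regulator fxyd2 was at 0, 2.15 and 8.43 against 0, 0.185 and 1.21 per 1000, higher in 8 of 10 libraries (3.30 above the median, SE 0.58, edgeR adjusted p = 0.00055). For hmgn2 the values were 0, 0.525 and 1.62 against 0.161, 2.24 and 4.62 per 1000, lower in 10 of 10 libraries, with a log2 difference of -1.97 under nuclear totals (SE 0.40, edgeR adjusted p = 0.00042).

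The share of rRNA-dominated cells was compared between genotypes to ask whether they were spread evenly. They were found in 23 of 24 libraries, and were 10 of 345 wild-type cells, 34 of 359 IT325 cells and 35 of 304 fr105 cells. In wild-type libraries they made up 0% in the lowest, 2.60% in the median and 6.38% in the highest library, with a mean of 3.02% ± 1.97 (SD, n = 8). The library with none held 45 cells, with an exact 95% Clopper-Pearson interval of 0 to 7.87%. In IT325 libraries they made up 2.38%, 10.2% and 16.3%, with a mean of 9.33% ± 5.27 (SD, n = 8). In fr105 libraries they made up 4.35%, 10.7% and 22.7%, with a mean of 11.3% ± 6.94 (SD, n = 8). The ranges overlapped, but 6 of 8 IT325 libraries and 8 of 8 fr105 libraries were above the wild-type median. The highest library, with 10 of 44 cells, has an exact 95% Clopper-Pearson interval of 11.5 to 37.8%, which covers counting error only.

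The difference from wild-type was 6.31 percentage points in IT325 (two-sided exact permutation p = 0.0087, adjusted over 3 comparisons 0.0131) and 8.23 in fr105 (exact permutation p = 0.0022, adjusted 0.0065). IT325 and fr105 differed by 1.93 points (exact permutation p = 0.54). Within set P1 the means were 4.53% ± 1.39 for wild-type, 10.33% ± 6.08 for IT325 and 7.52% ± 4.86 for fr105 (SD, 4 libraries each), and within P2 they were 1.51% ± 1.02, 8.33% ± 5.03 and 15% ± 7.18. Both differences from wild-type stayed above 0 in each set, with the call kept in P2 alone (exact permutation adjusted p = 0.0429 for both) and lost in P1 alone (0.343 for both). Both calls ended with a limit of 70% (exact permutation adjusted p = 0.132), with a minimum of 3000 transcripts (0.310 for IT325, 0.0811 for fr105) and with whole UMIs in place of corrected transcripts (0.0795 for both).

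**Figure D5:**
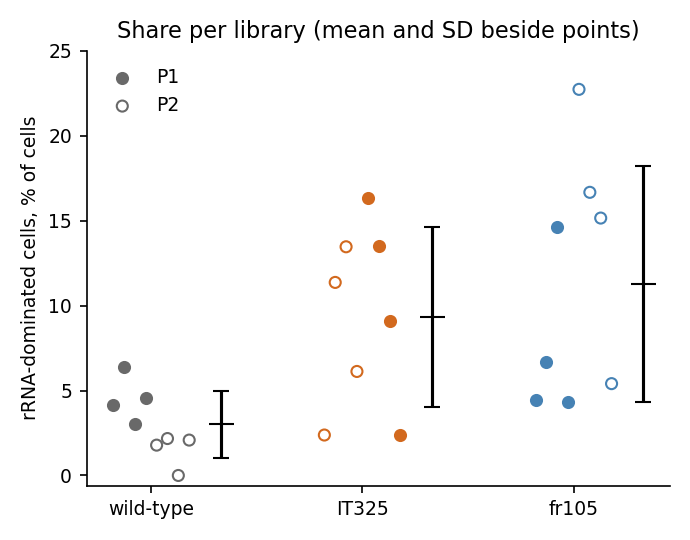
Percent of the cells of each library that were rRNA-dominated, by genotype, with 1 point per library, P1 and P2 marked apart, and the mean with its SD over 8 libraries. The wild-type libraries lie between 0 and 6.38%, the IT325 libraries between 2.38 and 16.3% and the fr105 libraries between 4.35 and 22.7%.

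Cells with tubule genes were unevenly spread over the genotypes as well. At least 3 tubule genes were found in 1 of 10 rRNA-dominated wild-type cells, 11 of 34 IT325 cells and 10 of 35 fr105 cells, and in 4 of 335 (1.19%), 43 of 325 (13.2%) and 64 of 269 (23.8%) of the other cells. With all such cells left out, the share of rRNA-dominated cells was higher than in wild-type by 7.64 points in fr105 (exact permutation adjusted p = 0.0019) and by 4.98 points in IT325 (0.0669), so that only the fr105 call was kept. The part of tubule cells, depth and lane in the share by genotype was not tested.

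Among the rRNA-dominated cells, gene levels could be compared between fr105 (5 libraries) and IT325 (6 libraries), whereas wild-type had 1 library with at least 3 of these cells. Of 534 genes tested by edgeR, 2 were higher in fr105 (0.375%) and 4 lower (0.749%), together 1.12%, with TMM as with nuclear totals, and 44 of the 534 had an unadjusted p under 0.05. All 4 lower genes were globins. The beta globin gene zgc:92880 was at 12.2, 17.6 and 27.7 transcripts per 1000 nuclear transcripts in the lowest, median and highest IT325 library and at 0, 0.952 and 2.13 in fr105, without overlap (log2 difference -3.82, SE 0.57, edgeR adjusted p = 9.9e-07). The alpha globin gene hbaa2 differed by -3.08, ba1 by -2.20 and si:xx-by187g17.1 by -2.08.

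The 2 higher genes were lect2l, at 0, 0.603 and 1.21 per 1000 in IT325 and at 2.10, 3.33 and 11.7 in fr105 (log2 difference 3.20, SE 0.63, edgeR adjusted p = 0.00041), and npsn (2.28, SE 0.56, edgeR adjusted p = 0.0097). These directions were also seen in the other cells and in the wells under the minimum of the same libraries. The gene lect2l had a library median of 2.97 per 1000 in the other cells and 1.59 in the wells under the minimum of IT325, and of 12.4 and 8.56 in fr105. For ba1, the median was 69.2 and 40.6 in IT325 and 0.293 and 8.40 in fr105, beside 26.0 and 3.20 in the rRNA-dominated cells. In fr105, ba1 was therefore higher in the rRNA-dominated cells than in the other cells at the median, and lower than in the wells under the minimum. The ranges over libraries overlapped in both cases.

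Across libraries, barcode numbers did not gather the rRNA-dominated cells in a few positions. The 79 cells used 67 barcode numbers, and 9 numbers occurred in more than 1 library, in 3 libraries at most. Such sharing follows from the plate design, in which 189 barcode numbers held a cell in more than 1 library. By number, 8 cells lay next to another rRNA-dominated cell of their library, among them a run of 4 in fr105 replicate 5 at barcodes 73 to 76. That library, which had the highest share, also held rRNA-dominated cells at barcodes 78 and 80. Whether cells lay closer by number within a library than by chance was not tested. In 23 of the 79 cells, over 2048 of the 4096 possible UMIs were used for ENSDARG00000080337, where the correction for repeated UMIs is steep and the corrected share is least precise.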

How the data were processed

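The deposited tables, 1 per library, hold expected counts, which the authors made from UMIs per gene and barcode with a binomial correction for a pool of 4096. Per the submitters' processing notes, bcl2fastq 2.17.1.14 and BWA 0.6.2-r126 were used, and the study's methods name gene models based on Ensembl release 74. The fuller 96 barcodes of each table were used. The members and all lists were chosen with earlier results of these data known.

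Shares per library were compared by exact two-sided permutation over libraries with Benjamini-Hochberg adjustment over 3 comparisons. Expected counts were summed per library and class of cell, rounded and tested with edgeR 4.0.16 (TMM, quasi-likelihood, filterByExpr with a minimum count of 2 and a total of 10) without ENSDARG00000080337, in libraries with at least 3 member cells. DESeq2 1.42.0, other scalings, filters, limits, sets and leaving out each library were alternatives. Totals without a factor, alone and with the 70% limit, no filter or the removal of tubule-gene cells, and the removal of cells with tubule genes or of mitochondrial genes, were added after seeing the data. The procedure was tested on simulated data. Wells under the minimum were kept as a comparison. Barcodes were not screened for doublets, and spike-ins were left out. Symbols were found for 18226 of 23981 genes.

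Genes named were the 3 label markers and 13 mitochondrial mRNAs, the 20 most abundant, the 15 largest and smallest changes past an adjusted p of 0.05 with at least 20 transcripts (10 in the other comparisons), and a few per list. The genes lower under all scalings and those left without tubule cells, ENSDARG00000081369 and ENSDARG00000091334 among them, were chosen after their values were seen. Some genes that the rule names are not reported here.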

Additional observations from a re-analysis of the deposited data

Results flagged for a closer look

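The wells just under the cell minimum were not part of the comparisons of cells. Among fr105 wells with 500 to 1499 transcripts, ENSDARG00000080337 held at least 60% in 40.9% (38 of 93, exact 95% Clopper-Pearson interval 30.8 to 51.5%), above the 19.8% (24 of 121) of wild-type wells. In IT325 the value was 13.2% (17 of 129), below wild-type. Over libraries the means were 39.9% ± 24.2 in fr105, 19.0% ± 12.6 in wild-type and 12.2% ± 10.7 in IT325 (SD, n = 8 each). The difference was not tested. Of 12 groups of libraries looked at for a library apart, none was flagged. Single genes could still differ widely between libraries. In the other cells of 5 fr105 libraries, ba1 was at 0.133, 0.293 and 27.5 per 1000 nuclear transcripts in the lowest, median and highest library.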

How the results depend on the processing

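The IT325 difference in share from wild-type lost its call with a limit of 70% (3.09 points), a minimum of 1000 transcripts (3.72, exact permutation adjusted p = 0.0855) or 3000 (2.49), whole UMIs (3.23), at least 500 transcripts outside ENSDARG00000080337 (3.99), P1 alone (5.80) and cells with under 3 tubule genes (4.98). The fr105 difference lost it with 70% (3.58), 3000 transcripts (4.74), whole UMIs (4.64) and P1 alone (2.99). Without each replicate the IT325 difference was 5.31 to 7.30, the fr105 difference 6.60 to 9.22 and that between the alleles 0.287 to 2.92, and no call changed. Same-numbered libraries did not deviate together, with correlations between -0.257 and 0.234, so the numbers were not taken as pairs. With a replicate block, the IT325 difference was 3.80 over 4 pairs, where p cannot go below 0.125, the fr105 difference was 8.23 over 8 pairs (exact sign-flip adjusted p = 0.0469), and among rRNA-dominated cells 3 genes were higher in fr105 and 4 lower.

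Against other cells, the 53 higher genes became 163 with DESeq2, 99 with its size factors in edgeR, 128 with nuclear totals, 99 without a filter, 92 at a limit of 50%, 17 at 70% and 15 without tubule-gene cells. With nuclear totals in addition, 344 were higher and 20 lower without a filter, 34 and 0 at 70% (211 at an unadjusted p under 0.05 by edgeR), and 29 and 1 without tubule-gene cells. The 1553 lower genes became 34, 54 and 38 with those scalings, 282 with summed totals, 4304 without a filter, 594 at a minimum count of 5, 427 with other cells of matched remainder, 938 in P1 and 924 in P2. On the TMM scale, where the median of all genes lay at -1.58 without a filter and -2.30 at 70%, the difference of atp1a1a.4 was -0.0099 and -0.15 and that of selenop at 70% was -0.30, none past the threshold. Relative to that median they were 1.57, 2.16 and 2.004, above 0 as in the main setting. Without each replicate, 46 to 61 were higher and 1356 to 1503 lower. Against tubule-gene cells, the 18 higher genes became 37 and the 14 lower genes 249 with 2 tubule genes as the limit, and the lower genes became 6 with DESeq2, 3 with its size factors, 1 with nuclear totals and 1128 without a filter. Without each replicate, 13 to 20 were higher and 6 to 44 lower, with 6 without IT325 replicate 3 and 44 without fr105 replicate 6. Between the alleles, 0 genes were higher and 2 lower without a filter by edgeR (341 at an unadjusted p under 0.05; DESeq2 with the filter called 2 and 4), 7 and 10 at 50%, and 2 to 3 and 4 to 5 without each replicate. The causes of these changes were not tested.

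Small sums limit all gene comparisons: the median rRNA-dominated cell held 347 nuclear transcripts, and most genes rest on a few transcripts per library. The limit of 60% cuts a continuous range, and at 70% only 49 cells remained, of which 10.2% had at least 3 tubule genes. Near saturation of the UMI pool the share is imprecise. Libraries may share a fish, and lane and genotype cannot be told apart.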
